A study of Mus musculus with 20 samples.

Results

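The comparison described here set 5 mice of the F1 stress lineage against 5 mice of the F1 no-stress lineage, 10 of the 20 libraries of a study of amygdala RNA. All mice were males of strain C57B6, bred in house from Taconic stock, aged to postnatal day 84 and behaviourally naive. The F1 stress mice were the first generation after animals put through a chronic unpredictable stress procedure, and the F1 no-stress mice descended from unstressed animals. The labels do not say which parent was stressed, nor whether mice of a group were littermates, so the tests measure the spread between the mice of a group. The other 10 libraries are the corresponding F2 groups, 5 mice each. They were part of the main fit, in which all groups share 1 estimate of spread, and their lineage difference is set beside that of F1. Poly-A RNA from bilateral 1.2 mm amygdala punches was sequenced with a stranded TruSeq kit, and the deposited values are read counts for 29671 genes.

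The amygdala is a forebrain structure that assigns emotional value to stimuli and drives fear and stress responses. Its basolateral nuclei hold glutamatergic neurons like those of the cortex, its central nucleus holds GABAergic neurons rich in neuropeptides, and it lies against the striatum, whose medium spiny neurons receive dopamine. Several groups of genes described below serve the energy supply and protein synthesis of all these cells: the respiratory chain and ATP synthase of mitochondria, whose subunits are encoded partly in the nucleus and partly on mitochondrial DNA, and the ribosome. In bulk tissue, fewer cells of a type and less RNA per cell cannot be told apart.

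The F1 libraries held 13654890 to 13696581 counts each, a spread of 0.305%, so their totals had been brought to a common size before deposit and the sequenced depth is not known. Libraries of 1 group were not copies of each other: in the 20 pairs within F1 groups the chi-square per gene was 6.99 to 30.5. Markers of the labelled region were present, with all 20 markers of pallial excitatory neurons and all 18 of central amygdala neurons tested and none of them at 0 in any F1 library. Markers of the neighbouring striatum were present too, at a summed 2837 to 6907 CPM (counts scaled to a common library size) in the stress and 3617 to 11866 CPM in the no-stress libraries. Of 16 listed hypothalamic and thalamic markers, 8 were too low to be tested, namely Hcrt, Pmch, Avp, Oxt, Agrp, Nr5a1, Otp and Sim1. The other 8 were tested, and none of them was at 0 in any F1 library. They summed to 141 to 187 CPM in the stress and 129 to 194 CPM in the no-stress libraries. Mice of a group varied by 18.1% in a typical gene (edgeR's biological coefficient of variation).

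No gene passed the test between the F1 stress and F1 no-stress lineages. Of 16727 genes tested, 0 (0%) had an adjusted p below 0.05 (edgeR quasi-likelihood F test, Benjamini-Hochberg adjustment), 0 did in limma-voom, 2 (0.012%) in DESeq2 and 3 (0.0179%) in limma-voom weighted by library. At an unadjusted p below 0.05 there were 1030 genes (6.16%), 441 higher (2.64%) and 589 lower (3.52%) in the stress lineage. With library totals in place of TMM scaling this split turned to 602 higher and 394 lower. With only the F1 libraries in the fit it was 945 higher and 880 lower, and in limma-voom weighted by library 1735 higher and 1869 lower. When 1 F1 library was left out the lower count ran from 342, without stress replicate 4, to 1103, without no-stress replicate 6, and the higher count from 235, without stress replicate 2, to 866, without no-stress replicate 6. Stress replicate 3 (281 higher) and no-stress replicates 7 (293 higher) and 9 (264 higher, 383 lower) also moved a count by over 1.5 times. In 207 genes (1.24%) the libraries of the groups did not overlap, 112 (0.67%) with all stress libraries higher and 95 (0.568%) with all lower.

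The differences were small for most genes. The median absolute log2 difference was 0.123 in F1, against a median standard error of 0.146, and 0.187 in F2 with the same standard error. The median over all genes was 0.004, with 49% of the estimates negative and 51% positive. An estimate of at least 1.5-fold was found for 352 genes higher and 225 lower in the stress lineage, of at least 2-fold for 53 and 40, and of at least 3-fold for 2 and 2. Among the 12173 genes with a mean of at least 5 CPM, 14 reached 2-fold and 0 reached 3-fold. The 95% interval of the difference lay within 1.5-fold either way for 10994 genes (65.7%), and for 83.1% of genes of at least 5 CPM. It lay within 2-fold for 88.3% of all genes and 96.6% of those at 5 CPM or more. An interval within 1.2-fold was reached by 16.7% of genes.

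**Figure D1:**
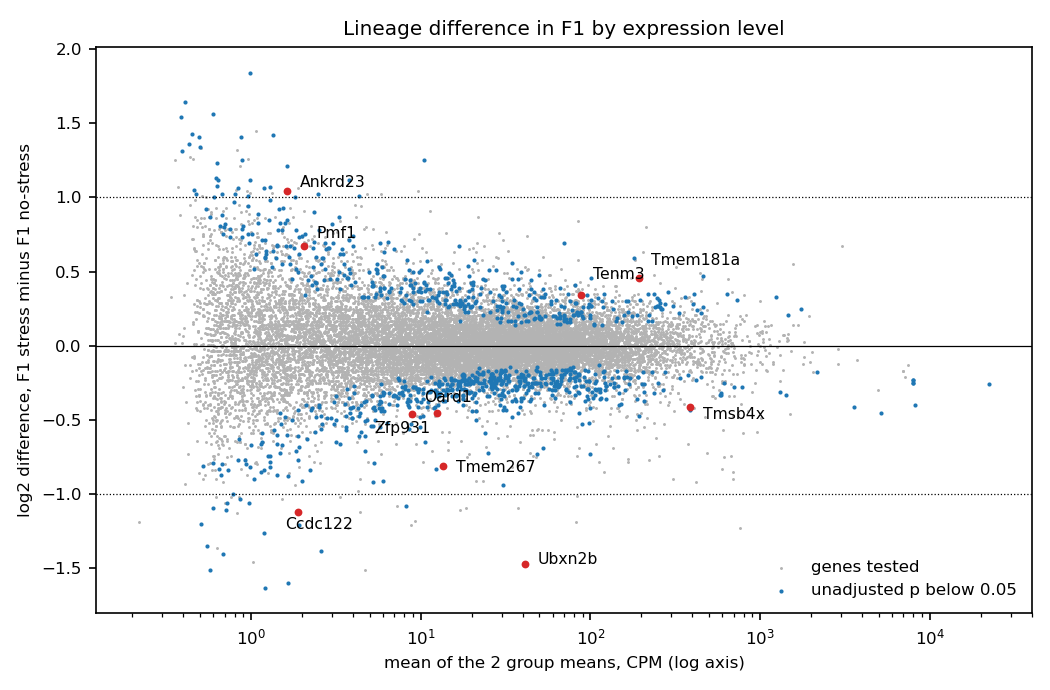
Each point is 1 of the 16727 genes tested, with the mean of the group means in CPM on a log axis and the log2 difference (F1 stress minus F1 no-stress) on the vertical axis. Blue points have an unadjusted p below 0.05, red points are named, and dotted lines mark 2-fold. Ubxn2b stands below 2-fold at a mean where few other genes do.

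Ubxn2b encodes a UBX-domain cofactor of the ATPase Vcp (p97), which extracts proteins from membranes and complexes and takes part in Golgi and endoplasmic reticulum upkeep. It had the smallest p of all genes and lies on chromosome 4 (6191098 to 6221688, GRCm38, protein-coding, ENSMUSG00000028243). The F1 stress libraries held 27.8, 25.8, 23.7, 11.4 and 20.5 CPM, and the no-stress libraries 46.5, 40.2, 71.5, 69.5 and 75.4 CPM. Every stress library lay below every no-stress library, and within the no-stress group replicates 6 and 7 stood below the other 3. The log2 difference was −1.47 ± 0.23 SE, with a 95% interval of −1.96 to −0.98, and it did not pass (adjusted p = 0.0726, edgeR). DESeq2 gave it an adjusted p of 3.72e-06 and weighted limma-voom one of 0.042, and edgeR called it with library totals as scaling (0.039) or without no-stress replicate 7 (0.0284). With the striatal score of each library in the model the smallest adjusted p of any gene was 0.243.

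The 4 tested neighbours of Ubxn2b within 1 Mb had smaller estimates. Fam110b, whose product binds centrosomes and microtubules, had a log2 difference of −0.35 ± 0.15 SE. Its span (5644090 to 6108223) begins 547 kb before that of Ubxn2b, which begins at 6191098. Sdcbp (syntenin-1, a PDZ scaffold of exosome formation) was at −0.21 ± 0.092, Nsmaf (a factor tied to neutral sphingomyelinase activation) at 0.23 ± 0.17 and Tox (an HMG-box regulator) at 0.11 ± 0.15. The adjusted p lay between 0.739 and 0.86 in all 4 (edgeR), and the sign of Tox turned with the striatal score or a surrogate variable in the model. Among 26 genes of Vcp and its cofactors, 11 were negative and 0 passed. The median was 0.029, beside 0.004 over all genes, and Nsfl1c, which encodes the cofactor p47, was at 0.22 ± 0.083.

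The next genes with lower means in the stress lineage served varied functions, and none passed (Tmem267 with an adjusted p of 0.542, each other gene with 0.739, edgeR). Tmem267, a membrane protein gene on chromosome 13, held 11.6, 7.82, 7.79, 11.7 and 10.6 CPM in the stress and 12, 20.8, 19.2, 19.5 and 14.8 CPM in the no-stress libraries. The groups did not overlap, but no-stress replicate 6 lay close to the highest stress libraries. The log2 difference was −0.81 ± 0.16 SE, and DESeq2 (adjusted p = 0.0163) and weighted limma-voom (0.0487) called it. Oard1, which encodes a hydrolase that removes ADP-ribose from proteins, held 7.55, 7.53, 7.93, 7.65 and 6.7 CPM against 8.43, 9.55, 11.5, 10.5 and 11.3 CPM. Its stress libraries were tightly grouped below all no-stress libraries, with a log2 difference of −0.46 ± 0.11 SE. Ccdc122, a coiled-coil gene of low level, had 1.18 ± 0.5 CPM in the stress and 2.58 ± 0.391 CPM in the no-stress lineage (SD, n = 5 each) and a log2 difference of −1.12 ± 0.29, which weighted limma-voom alone called (adjusted p = 0.0487).

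Further down the list, Eif2a, an alternative initiation factor of translation, was at −0.26 ± 0.075 (log2 difference ± SE), and Lcmt2, a tRNA wybutosine-modifying enzyme gene, at −0.51 ± 0.15. Tmsb4x, which encodes the actin-sequestering thymosin beta 4, was at −0.41 ± 0.11 and Ppp2r2d, a regulatory subunit of phosphatase 2A, at −0.26 ± 0.074. Pex11a, a peroxisome division gene, was at −0.32 ± 0.093, Ino80c, a subunit of the INO80 chromatin remodeller, at −0.34 ± 0.09, and the zinc finger gene Zfp931 at −0.45 ± 0.11. The remaining 4 of the 15 were the ribosomal protein gene Rps24 and the respiratory chain genes Cox7b, Uqcrh and Cox20, given below with their groups. Of the 15 genes, counting Ubxn2b, all but Tmsb4x, Eif2a, Ppp2r2d and Pex11a had the 5 stress libraries below the 5 no-stress libraries. The genes were ranked by p in these libraries, which favours such a separation.

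The 15 genes with higher means and the smallest p served varied functions, and none passed. Tenm3, a teneurin that guides synaptic partner choice in the forebrain, held 124, 90.2, 90, 90 and 94.2 CPM in the stress and 74.3, 77.4, 69.9, 82.2 and 82.9 CPM in the no-stress libraries. All stress libraries lay above all no-stress libraries, with stress replicate 1 apart from the other 4. Its log2 difference was 0.34 ± 0.096 SE. Csmd2, a postsynaptic CUB and Sushi domain protein gene, was at 0.48 ± 0.15, Obsl1, a cytoskeletal adaptor of the obscurin family, at 0.36 ± 0.11, and Pomt1, an enzyme of O-mannosylation of dystroglycan, at 0.36 ± 0.11. Nuclear proteins were Pmf1, a kinetochore subunit (0.67 ± 0.20), Banp, a DNA-binding protein of CpG-rich promoters (0.46 ± 0.15), and Zc3h3, a factor of mRNA polyadenylation and export (0.52 ± 0.15). The muscle ankyrin repeat gene Ankrd23 had the largest estimate of the 15, at 1.04 ± 0.30, with 2.21 ± 0.629 against 1.07 ± 0.2 CPM (SD, n = 5 each). The N-acetyltransferase gene Nat8f7 (0.59 ± 0.18) and the phospholipase gene Pla2g4b (0.82 ± 0.26) were of similarly low level. The adjusted p was 0.739 for each (edgeR).

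The last 5 of the 15 have near-identical copies in the genome, and how the counting treated shared reads is not given, so their values are uncertain. They were Tmem181a (log2 difference 0.46 ± 0.14 SE) and its copy Tmem181b-ps (0.59 ± 0.19), the dynein light chain gene Dynlt1c (0.58 ± 0.18), Atg4a-ps (0.71 ± 0.22) and Mdm4-ps (0.71 ± 0.23). Tmem181a, Tmem181b-ps and Dynlt1c lie together on chromosome 17 between 6 and 7 Mb.

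**Figure D2:**
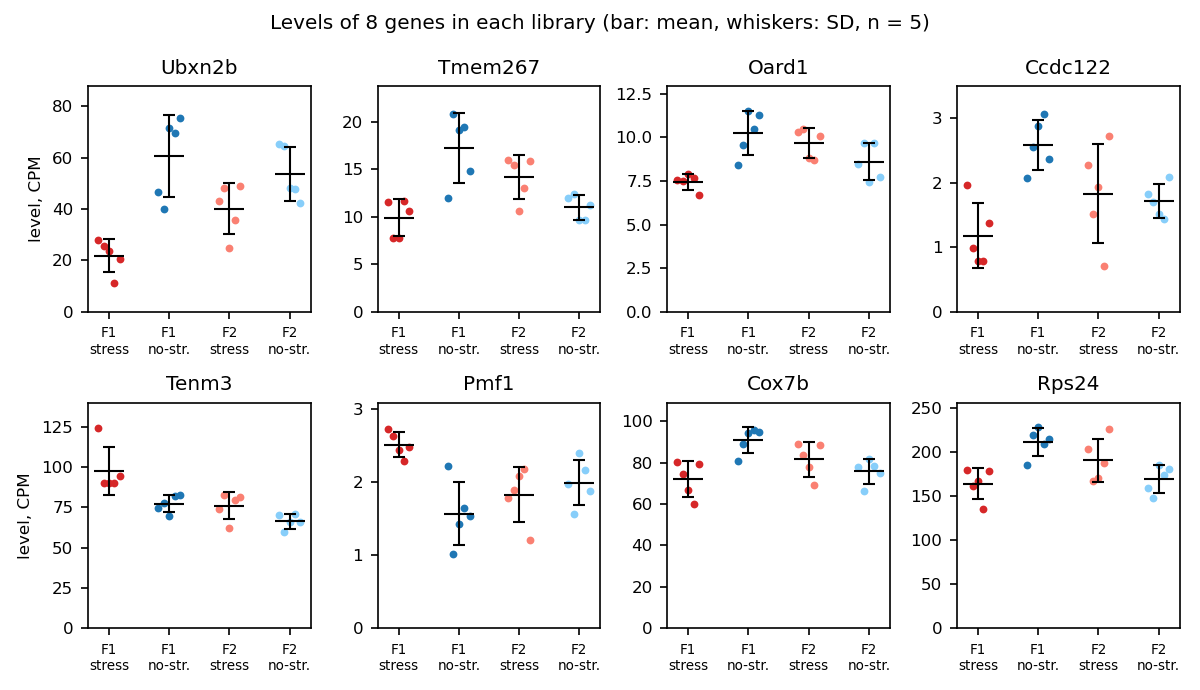
Levels in CPM of 8 genes in each library, with the mean as a bar and the SD as whiskers (n = 5) for stress and no-stress mice of F1 and F2. In Ubxn2b and the other 7 genes the F1 groups do not overlap, while the F2 groups overlap in all 8 panels. The 8 genes were taken from those with the smallest p in F1, which favours separation in F1 over F2. Over all genes tested, the F1 groups did not overlap in 1.24%.

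Among genes with a symbol and a mean of at least 1 CPM, the 8 largest estimates in each direction came mostly from genes of low level or of wide spread between mice of a group. Abcc12, an ABC transporter gene (−1.60 ± 0.59), Gpx6, a glutathione peroxidase gene (−1.63 ± 0.71), Clspn, a replication checkpoint gene (−1.51 ± 0.82), and Fyb2 (−1.46 ± 0.87) had the most negative log2 differences beside Ubxn2b, each with group means of at most 6.99 CPM. Dmkn was at −1.38 ± 0.59 and Musk, a receptor kinase gene of the neuromuscular junction, at −1.23 ± 0.61. Scn4b, the sodium channel subunit gene abundant in striatal neurons, was by far the most abundant of these, with 854, 152, 461, 418 and 387 CPM in the stress and 274, 1053, 906, 1756 and 1323 CPM in the no-stress libraries. Stress replicate 2 and no-stress replicate 6 were the lowest of their groups, and the groups overlapped. Its log2 difference was −1.23 ± 0.75 and turned to 0.047 with the striatal score in the model and to 0.25 with a surrogate variable. On the higher side, Ttr, the thyroxine carrier made in choroid plexus, was at 1.25 ± 0.59, with 46 CPM in stress replicate 5 against 4 to 12.5 CPM in the other stress libraries, and at 0.16 without that replicate. Gal (galanin, 1.45 ± 1.04) and Prlr (the prolactin receptor, 1.04 ± 0.73) turned to −0.049 and −0.042 with a surrogate variable. Zan (1.42 ± 0.66), the noncoding RMST_1 (1.12 ± 0.53), Ubap1l (1.06 ± 0.68) and Mab21l1 (1.03 ± 0.69) had group means of at most 5.16 CPM. None passed (adjusted p of 0.0726 for Ubxn2b and 0.739 to 0.746 for the others, edgeR).

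Whether the F1 difference differed from the F2 difference was tested in the same fit as an interaction. It passed for 421 of 16727 genes (2.52%) and for 16 of the 30 genes with the smallest F1 p. These 30 were chosen for their F1 difference, so their share is not independent evidence. The 16 held Tmem267 (F1 minus F2 log2 difference −1.18), Tmsb4x (−0.67), Oard1 (−0.63), Uqcrh (−0.57), Rps24 (−0.53), Ino80c (−0.52), Eif2a (−0.46) and Ppp2r2d (−0.41) on one side. On the other side stood Ankrd23 (1.84), Pla2g4b (1.60), Tmem181b-ps (1.07), Zc3h3 (0.98), Obsl1 (0.89), Banp (0.88), Tmem181a (0.74) and Pomt1 (0.73). Their adjusted p lay between 0.0309 and 0.0492 (edgeR), while Ubxn2b, at −1.06, did not pass (0.0748). With an offset that removes trends with GC content and length from single libraries, 0 of the 30 and 1 of 16727 genes passed. Without F1 stress replicate 2, 3 or 4, or without F1 no-stress replicate 7, 8 or 10, 0 genes passed, and without no-stress replicate 9, 10 of the 30 did. The F2 lineages differed in 1324 genes (7.92%), and their difference followed GC content, from a median of 0.17 in the 10% of genes lowest in GC to −0.40 in the 10% highest, where F1 had 0.021 and 0.004.

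The subunits of the respiratory chain and ATP synthase encoded in the nucleus stood lower in the F1 stress lineage as a group, each by a small amount. Of 79 genes tested, 76 (96.2%) had a negative log2 difference, with a median of −0.22, a level lower by 14%, beside 49% negative and a median of 0.004 over all genes. None passed, and 35 (44.3%) had an unadjusted p below 0.05, where 3.52% of all genes were lower at that p. In 7 (8.86%) all stress libraries lay below all no-stress libraries, beside 0.568% of all genes. Complex I, which takes electrons from NADH, had 35 of 36 negative (median −0.20), complex II 3 of 4 (−0.17), complex III 9 of 9 (−0.26), complex IV, which passes electrons to oxygen, 12 of 12 (−0.28) and ATP synthase 17 of 18 (−0.19). The complex III median was −0.15 without no-stress replicate 9 and −0.37 without stress replicate 5. With the striatal score the medians of complexes I to IV and ATP synthase were −0.13, −0.11, −0.12, −0.18 and −0.16, and with a surrogate variable −0.11, −0.091, −0.080, −0.14 and −0.15. The F2 median of the 79 genes was 0.059 and the interaction passed in 8 of them, beside 2.52% of all genes, under the limits given above.

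Promoters of such genes are known targets of the nuclear respiratory factor NRF1 and of ETS factors, and 4 promoters of genes named below that hold their motifs are shown. RefSeq promoters (GRCm38.p6) were matched for 63 of the 79 genes and for 11609 of all genes tested. In the 250 bases before the start, the core of the NRF1 motif was found on either strand in 12 of 63 (19%), against 7.74% of all promoters, and the ETS motif CCGGAAG in 11 of 63 (17.5%), against 12.7%. The motifs can share no more than an end base, and a match describes the sequence only. Each sequence runs 5′ to 3′ toward the start site, with motif matches in capitals.
Uqcrh (chr4:116075071-116075320, minus strand): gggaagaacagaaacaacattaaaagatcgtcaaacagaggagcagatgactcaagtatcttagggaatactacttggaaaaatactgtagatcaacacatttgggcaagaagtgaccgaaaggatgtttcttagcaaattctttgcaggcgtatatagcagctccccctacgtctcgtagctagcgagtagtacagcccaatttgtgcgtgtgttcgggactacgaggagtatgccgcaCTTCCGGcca
Sdhd (chr9:50603850-50604099, minus strand): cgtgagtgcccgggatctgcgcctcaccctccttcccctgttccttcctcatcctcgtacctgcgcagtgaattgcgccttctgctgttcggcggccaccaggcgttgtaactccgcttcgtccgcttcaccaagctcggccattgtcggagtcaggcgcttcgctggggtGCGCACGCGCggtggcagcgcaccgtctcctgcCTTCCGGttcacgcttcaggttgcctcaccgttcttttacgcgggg
Atp5h (chr11:115419920-115420169, minus strand): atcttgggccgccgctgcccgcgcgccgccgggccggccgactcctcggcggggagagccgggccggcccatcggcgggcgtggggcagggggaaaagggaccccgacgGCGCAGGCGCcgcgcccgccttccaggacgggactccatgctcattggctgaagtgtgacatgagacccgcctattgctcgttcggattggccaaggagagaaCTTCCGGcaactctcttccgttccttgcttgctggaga
Sdha (chr13:74350241-74350490, minus strand): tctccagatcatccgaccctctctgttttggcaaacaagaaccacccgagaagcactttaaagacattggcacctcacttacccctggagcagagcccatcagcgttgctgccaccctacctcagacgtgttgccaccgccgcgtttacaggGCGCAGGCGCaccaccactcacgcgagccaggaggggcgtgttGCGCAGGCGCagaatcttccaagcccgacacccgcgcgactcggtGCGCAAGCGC

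Uqcrh, a hinge subunit of complex III whose promoter holds 1 ETS match that begins 10 bases before the start, had 115, 93.9, 94.6, 82.5 and 112 CPM in the stress and 121, 125, 136, 129 and 127 CPM in the no-stress libraries. The groups did not overlap, with stress replicates 1 and 5 closest to the no-stress libraries (log2 difference −0.36 ± 0.098 SE). Cox7b, a complex IV subunit gene on the X chromosome, had 80.3, 74.3, 66.7, 59.9 and 79.5 CPM against 80.7, 89.2, 94.5, 95.6 and 94.8 CPM. Here too stress replicates 1 and 5 and no-stress replicate 6 nearly met, and the log2 difference was −0.33 ± 0.09. Ndufs4, a complex I subunit needed for its assembly, was at −0.40 ± 0.12, Ndufb5 at −0.22 ± 0.075, Uqcrb at −0.32 ± 0.11, Cox6c at −0.36 ± 0.11, Cox5a at −0.29 ± 0.091 and Atp5h at −0.25 ± 0.083. Sdhd, the membrane anchor of complex II, was at −0.24 ± 0.077. The start of Timm8b, a chaperone gene of mitochondrial import, lies 98 bases from that of Sdhd on the other strand, inside the promoter shown, and Timm8b was at −0.37 ± 0.12. Sdha, the catalytic subunit of complex II, was an exception at 0.019 ± 0.061, with 408 ± 14.5 CPM in the stress and 403 ± 22.4 CPM in the no-stress lineage (SD, n = 5 each). Its sign turned without no-stress replicate 9 (−0.003) or 10 (−0.004). Its promoter holds NRF1 matches that begin 98 and 55 bases before the start and 1 more at its end.

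The other lists of mitochondrial genes lay on the same side, with smaller medians where the genes do not belong to the chain itself. Genes encoded on mitochondrial DNA were negative in 15 of 15 (median −0.28), and their median was −0.17 with the striatal score and −0.15 with a surrogate variable. It was −0.36 with the GC and length offset and −0.35 to −0.21 when 1 F1 library was left out. Besides these, 5 other genes had counts within 10% of a mitochondrial gene's in every library, at means of 8233 to 108693 counts, so how reads were shared between such copies is uncertain, and so are these values and the share of counts below. The complex I gene mt-Nd1 had 4354 ± 673 CPM in the stress and 5950 ± 865 CPM in the no-stress lineage (SD, n = 5 each; log2 difference −0.45 ± 0.15 SE), mt-Cytb was at −0.40 ± 0.15 and mt-Co1 at −0.26 ± 0.12. Mitochondrial genes took 6.46 to 8.26% of counts in the stress and 7.64 to 9.65% in the no-stress libraries, ranges that overlapped. Assembly factors of the complexes were negative in 39 of 45 (median −0.14), with Cox20, a chaperone of complex IV, at −0.61 ± 0.17 and Surf1 at −0.22 ± 0.082. Mitochondrial ribosomal proteins were negative in 71 of 78 (−0.13), for example Mrpl13 at −0.31 ± 0.097, and protein import genes in 28 of 30 (−0.14). The tricarboxylic acid cycle was negative in 17 of 18 genes, but with a median of −0.065, and mitochondrial carriers in 24 of 40 (−0.061). Glycolysis, which makes ATP in the cytosol, lay on the other side, with 5 of 20 negative and a median of 0.054, for example Eno1 at 0.15 ± 0.12. No gene of these lists passed.

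Cytosolic ribosomal proteins showed a difference of like size. Of 84 genes, 82 (97.6%) were negative, with a median of −0.21, and 29 (34.5%) had an unadjusted p below 0.05, where 3.52% of all genes were lower at that p. The small subunit had 35 of 36 negative (median −0.23) and the large subunit 47 of 48 (−0.17). In 2 genes (2.38%) all stress libraries lay below all no-stress libraries, beside 0.568% of all genes. Rps24, which is needed for the processing of 18S rRNA, held 179, 161, 167, 135 and 178 CPM in the stress and 185, 219, 228, 209 and 214 CPM in the no-stress libraries, with the lowest value in stress replicate 4. Its log2 difference was −0.36 ± 0.096 SE, and Rpl31 was at −0.39 ± 0.12, Rpl39 at −0.33 ± 0.11 and Rps13 at −0.26 ± 0.084. Reads of these genes can be shared with processed pseudogenes, of which 66 of 109 with a ribosomal protein symbol were negative (median −0.056). The ETS motif was found in 30.5% of their 59 matched promoters and the NRF1 motif in 1.69%.

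Lists of other parts of protein turnover and RNA processing lay nearer to zero. Translation initiation and elongation factors were negative in 44 of 65 (median −0.055), with Eef1b2 at −0.25 ± 0.10, and proteasome subunits in 31 of 37 (−0.084), with Psmb6 at −0.24 ± 0.11. Sm and LSm proteins, the rings of splicing and mRNA decay particles, were negative in 19 of 24 (−0.11), and Lsm4 was at −0.41 ± 0.14 with no overlap between groups. Splicing factors of the SR and hnRNP families had 11 of 31 negative (0.046), heat shock proteins 11 of 34 (0.034) and the unfolded protein response 10 of 24 (0.020). The mitochondrial chaperonin gene Hspe1, counted among the heat shock list, was at −0.21 ± 0.088. None passed.

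**Figure D3:**
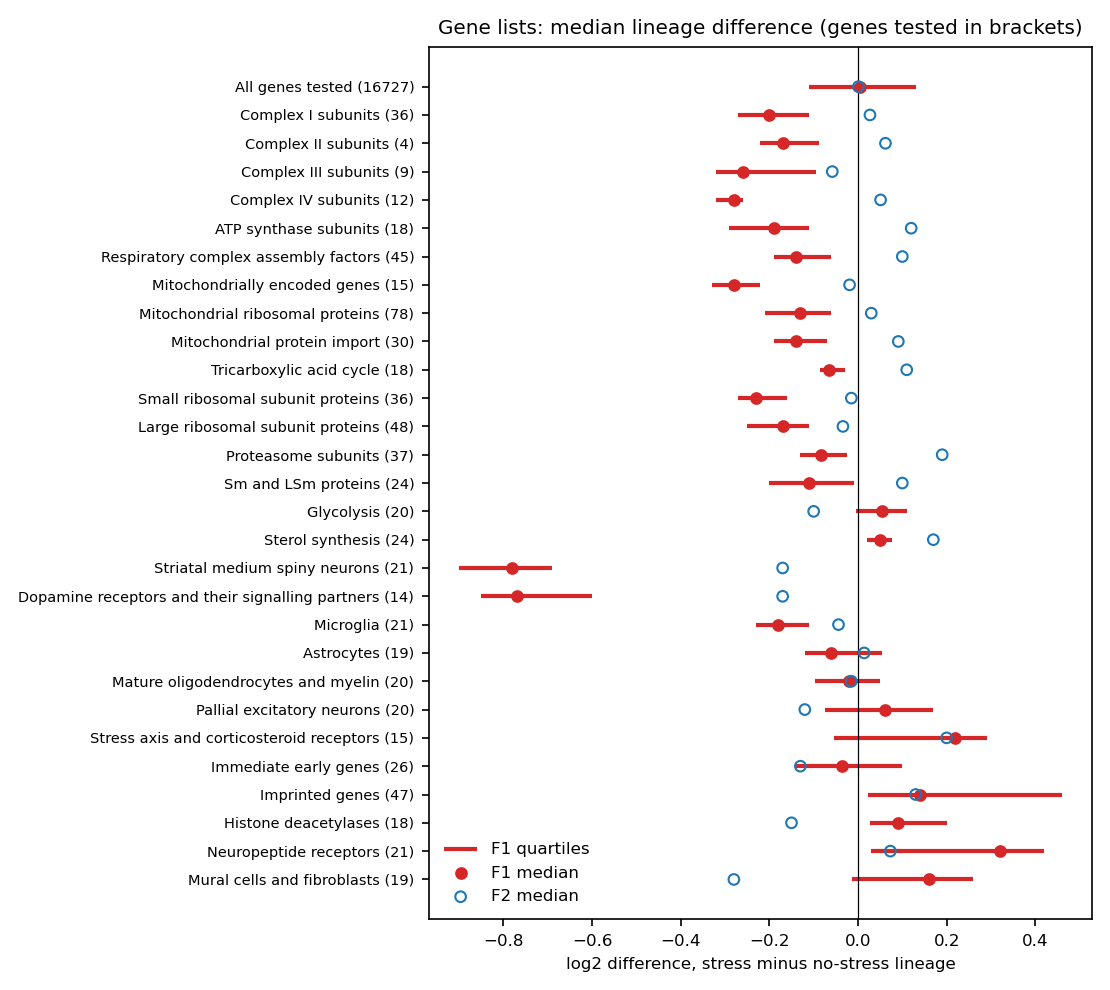
Median (red point) and quartiles (red line) of the log2 difference in F1 for 28 gene lists and all genes tested, with the F2 median as an open blue circle and the number of genes tested in brackets. Lists of respiratory chain and ATP synthase subunits and of cytosolic ribosomal proteins lie at medians of −0.17 to −0.28 in F1 and −0.058 to 0.12 in F2. Mitochondrial ribosomal proteins lie at −0.13 and assembly factors at −0.14 in F1. The striatal and dopamine lists lie at −0.78 and −0.77 in F1.

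These gene sets were not equally low in all stress mice. The mean log2 level (CPM + 0.5) of the 79 respiratory genes was 6.05, 6.0, 5.95, 5.89 and 6.23 in the stress and 6.15, 6.26, 6.25, 6.33 and 6.13 in the no-stress libraries. Stress replicate 5 lay inside the no-stress range, and the other 4 stress libraries lay below all 5 no-stress libraries. The ribosomal protein genes gave 6.55, 6.54, 6.52, 6.35 and 6.82 against 6.68, 6.87, 6.77, 6.83 and 6.59, again with stress replicate 5 high. When 1 F1 library was left out, 75 to 78 of the 79 respiratory genes stayed negative, with medians of −0.27 to −0.19, and 78 to 82 of the 84 ribosomal protein genes, with medians of −0.27 to −0.16. With a GC and length offset the medians were −0.20 and −0.18, and with library totals −0.19 and −0.17.

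Striatal markers were also lower on average in the stress group, by more, and their order among the libraries of a group was the same only in part. All 21 markers of striatal medium spiny neurons were tested, all 21 were negative, none was at 0 in any F1 library and none passed. Their median log2 difference was −0.78, their summed level 2837 to 6907 CPM in the stress and 3617 to 11866 CPM in the no-stress libraries. Their mean log2 level was 7.24, 5.82, 6.80, 6.75 and 6.62 in the stress and 6.21, 7.58, 7.31, 8.10 and 7.74 in the no-stress libraries, so that stress replicate 1 was high and no-stress replicate 6 low for its group. Stress replicate 5, the highest in respiratory genes, was next to lowest here, and no-stress replicate 10, the lowest in respiratory genes, next to highest. Other libraries held like places: no-stress replicate 9 was the highest of its group in both sets. No-stress replicate 6, the lowest here, was next to lowest in respiratory genes, and stress replicate 1, the highest here, came after only replicate 5 there. With this striatal level as a covariate, 74 of the 79 respiratory genes stayed negative with a median of −0.15, and 82 of the 84 ribosomal protein genes with a median of −0.16. With 1 surrogate variable 73 and 80 did, with medians of −0.12 and −0.15.

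**Figure D4:**
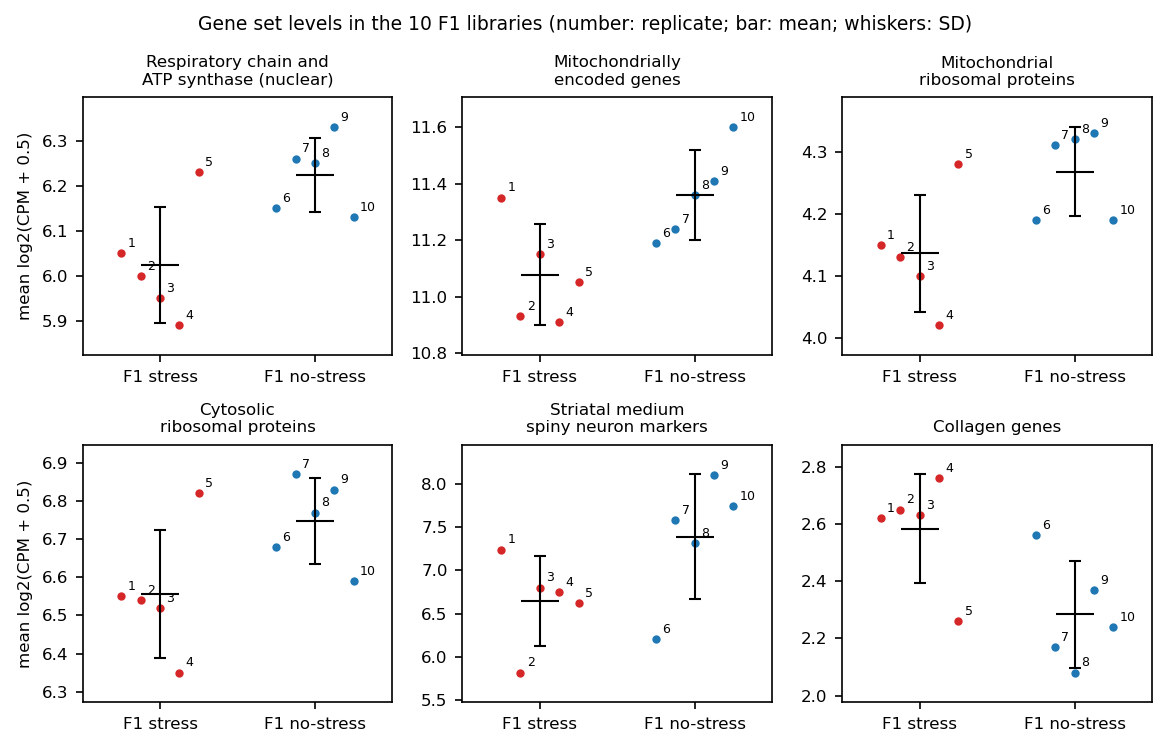
Mean log2(CPM + 0.5) of 6 gene sets in each F1 library, numbered by replicate, with the group mean as a bar and the SD as whiskers (n = 5). Stress replicate 5 sits among the no-stress libraries in the respiratory, ribosomal and collagen panels, and no-stress replicate 6 among the stress libraries in the striatal panel.

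The striatal genes included the main parts of dopamine signalling. Tac1, the precursor of substance P, had the smallest p of them, with 91.7, 55.8, 89.2, 69.8 and 68.7 CPM in the stress and 59.2, 138, 107, 178 and 139 CPM in the no-stress libraries. Only no-stress replicate 6 fell inside the stress range, and the log2 difference was −0.73 ± 0.34 SE. The G protein subunit gene Gng7 was at −0.83 ± 0.43, the calmodulin-dependent phosphodiesterase gene Pde1b at −0.74 ± 0.41, the enkephalin gene Penk at −0.58 ± 0.32, Arpp21 at −0.59 ± 0.30 and the dopamine receptor gene Drd2 at −0.78 ± 0.52. Of 14 dopamine receptors and signalling partners, 13 were negative (median −0.77), and 1 surrogate variable took that median to 0.062 and the striatal median to 0.077. Penk, Tac1 and Drd2 are also expressed in the amygdala itself, and the lists share members. Of 18 central amygdala markers, 10 were negative (median −0.021), and of 20 pallial excitatory markers, 8 (median 0.061).

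Among other cell types, microglial markers were negative in 20 of 21 (median −0.18), for example Siglech, a microglial lectin, at −0.26 ± 0.12. This median went to −0.051 with the striatal score and to −0.040 with a surrogate variable. The summed microglial level was 595 to 778 CPM in the stress and 686 to 823 CPM in the no-stress libraries, which overlapped. Brain endothelium had 15 of 20 negative (−0.077, and 0.027 with the striatal score), mature oligodendrocytes 13 of 20 (−0.021), astrocytes 10 of 19 (−0.060) and oligodendrocyte precursors 5 of 16 (0.099). Mural cells and fibroblasts had 5 of 19 negative (median 0.16, F2 median −0.28), with the pericyte and precursor proteoglycan gene Cspg4 at 0.42 ± 0.19. The mural median was 0.042 without stress replicate 1. No cell type marker passed.

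No gene of the stress axis passed. Of 15 genes of corticosteroid and stress peptide signalling, 10 were positive, with a median of 0.22. The mineralocorticoid receptor gene Nr3c2, whose product binds corticosterone with high affinity, was at −0.30 ± 0.099, with 58.3, 50.5, 51.4, 51.5 and 55.4 CPM in the stress and 48.4, 84.3, 63.8, 66.5 and 65.3 CPM in the no-stress libraries. No-stress replicate 6 was below all stress libraries and the other 4 above them. Lnpep, the aminopeptidase that degrades oxytocin and vasopressin, was at 0.26 ± 0.091, and Adcyap1r1, the PACAP receptor, at 0.25 ± 0.11. With the striatal score the median of the 15 genes was −0.004. Of 21 glucocorticoid-induced genes, 13 were negative (median −0.044), with Ddit4 at −0.22 ± 0.11 and Plin4 at 0.91 ± 0.47, and of 26 immediate early genes, 14 (−0.036).

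Neuropeptides and receptors gave no call. Of 24 other neuropeptide genes, 12 were negative (median 0.024), with the secretory granule chaperone gene Scg5 at −0.22 ± 0.093. Neuropeptide receptors were positive in 16 of 21 with a median of 0.32, which went to 0.057 with the striatal score and to −0.026 with a surrogate variable. Receptors for acetylcholine were positive in 10 of 12 (0.19), and GABA-A receptor subunits in 10 of 14 (0.12), with Gabrb1 at 0.29 ± 0.14. With the striatal score these medians were 0.11 and 0.011, and with a surrogate variable 0.063 and 0.003. AMPA receptor subunits and partners were positive in 10 of 16 (0.032), with Gria4 at 0.19 ± 0.10. Of 12 genes of the neurotrophin list, 8 were positive (median 0.17, 0.13 with the striatal score and 0.068 with a surrogate variable). The GDNF family receptor gene Gfra2 was at 0.51 ± 0.24, with 27.6 to 33.7 CPM in the stress and 16.3 to 25.2 CPM in the no-stress libraries. It was the only 1 of the 12 whose groups did not overlap, beside 1.24% of all genes. Gfra2 was named by its p within the list, which favours such a separation.

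Lists of adhesion, release and channel genes differed in sign. Teneurins, latrophilins and Flrt proteins, which bind each other across the synapse, were positive in 11 of 14 (median 0.13), with Tenm4 at 0.30 ± 0.12 beside Tenm3, and had a median of 0.061 with the striatal score. Synaptic vesicle release genes were positive in 24 of 34 (0.060), with the active zone scaffold gene Pclo at 0.33 ± 0.14. Of 31 sodium and calcium channel genes, 18 were positive (0.059), near the 51% of all genes. The N-type channel gene Cacna1b was at 0.25 ± 0.12 and the T-type channel gene Cacna1g at 0.69 ± 0.33. Cacna1b was the 1 gene of the 31 with all stress libraries above all no-stress libraries, and 1 gene had all below. Over all genes these shares were 0.67% above and 0.568% below. Protocadherins were negative in 53 of 68 (median −0.099, −0.035 with the striatal score), but the 22 gamma and 12 alpha genes had nearly equal values within each cluster (quartiles −0.11 and −0.11 for gamma, −0.011 and −0.005 for alpha). Genes of each of these clusters share constant exons, so they are not separate measurements. The 21 beta genes, which have no shared constant exons, were negative in 16 (median −0.16).

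Most chromatin enzymes and imprinted genes had positive estimates, and none passed. Histone deacetylases were positive in 15 of 18 (median 0.090), with Hdac7 at 0.47 ± 0.21 and the mitochondrial sirtuin gene Sirt4 at 0.41 ± 0.19. The deacetylase median went to 0.036 with the striatal score and to 0.014 with a surrogate variable. Of 47 histone methyl- and acetyltransferases and demethylases, 31 were positive (0.056), with Kmt2a at 0.32 ± 0.15. Of 19 writers, erasers and readers of DNA methylation, 12 were positive (median 0.067). That median was 0.044 with the striatal score and 0.035 with a surrogate variable, and only 1 gene had an unadjusted p below 0.05 (edgeR). It was the maintenance methyltransferase gene Dnmt1. Dnmt1 held 46.1, 54.5, 57.6, 53.9 and 52.7 CPM in the stress and 47, 49.9, 42.2, 41.7 and 40.3 CPM in the no-stress libraries. Only stress replicate 1 fell inside the no-stress range, and the log2 difference was 0.26 ± 0.087 (unadjusted p = 0.00697, adjusted p = 0.739, edgeR). Imprinted genes, expressed from 1 parental allele, were positive in 36 of 47 (median 0.14), with the noncoding Mirg at 0.66 ± 0.32 and the potassium channel gene Kcnk9 at 0.57 ± 0.27. The imprinted median went to 0.038 with the striatal score and to −0.012 with a surrogate variable.

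Families formed by the letters of the gene symbols gave 67 families of at least 20 tested genes. The lowest medians were those of the Hist (−0.28), Cox (−0.23), Pcdhb (−0.16), Mrpl (−0.14) and Rps (−0.14) stems, the last of which also holds pseudogenes and the Rps6ka kinases. The highest were Col (0.37), Sema (0.18), Myo (0.093), Ankrd (0.078) and Arhgap (0.076). Of 40 collagen genes, 34 were positive with a median of 0.37, and in F2 32 were negative with a median of −0.51, where 49.8% of all genes were negative. The F1 collagen median was 0.19 with the striatal score. The collagen genes named here were picked after their values were seen. Col4a2, of the vascular basement membrane, was at 0.50 (45.5 ± 7.83 against 32.2 ± 6.24 CPM, SD, n = 5 each), Col12a1 at 0.63 with no overlap between groups, and Col6a1 at 0.43. Stress replicate 5 had the lowest collagen level of its group, 2.26 as mean log2(CPM + 0.5), inside the no-stress range. Of 20 histone genes, 17 were negative in F1 (median −0.28) and 16 in F2 (−0.55). Several Hist1h2b genes of low level had nearly the same values as each other in most libraries. These genes may therefore not be separate measurements, which limits the histone counts and median. The F1 histone median was −0.11 with the striatal score and −0.18 without no-stress replicate 9. Replication-dependent histone mRNAs lack a poly-A tail, so a poly-A library catches them poorly. The linker histone gene Hist1h1c was at −0.65 and Hist1h2be at −0.54, and among 20 semaphorins, 16 of them positive, Sema4d was at 0.22. The histone genes and Sema4d were likewise picked after their values were seen, and none of the 6 genes passed.

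Transcript length went with the sign of the F1 difference, by little. The 10% of genes with the shortest transcripts (107 to 625 bases) had a median log2 difference of −0.047, and the 10% with the longest (3687 bases and more) a median of 0.055. Of the shortest 10%, 984 of 1677 were negative, and of the longest, 615 of 1670. Respiratory chain and ribosomal protein transcripts are short: complex I genes had a median length of 690 bases against 1457 for all genes. Within single libraries, the level of the shortest against the longest 10%, relative to the mean of the F1 libraries, was −0.12 to 0.099 in the stress and −0.088 to 0.11 in the no-stress libraries on the log2 scale, with stress replicate 5 again high and no-stress replicates 6 and 10 low for their groups. With the GC and length offset the complex I median was −0.18 in place of −0.20.

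**Figure D5:**
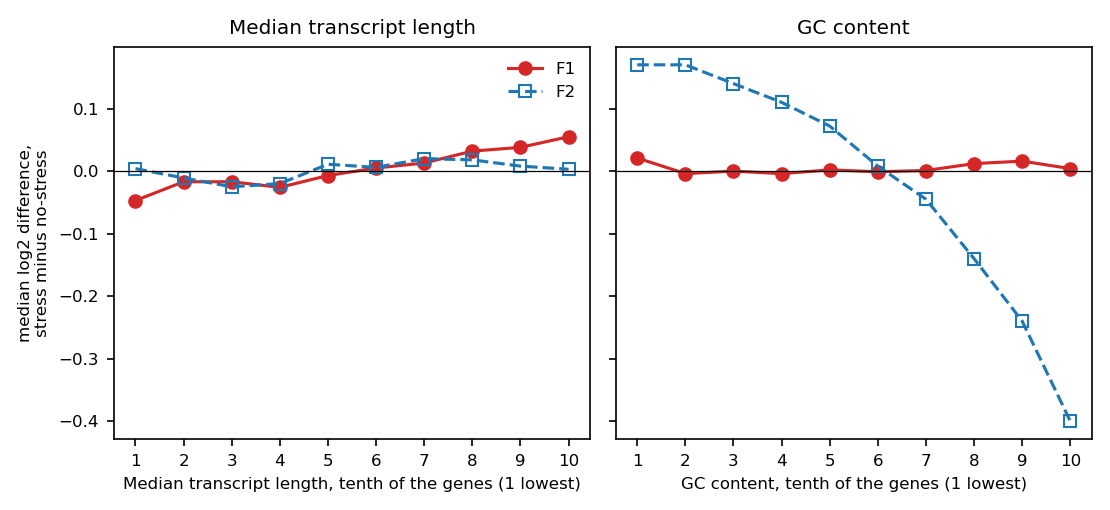
Median log2 difference (stress minus no-stress) in each of 10 equal bins of the genes ordered by median transcript length (left) and by GC content (right), for F1 (filled red) and F2 (open blue). F1 rises from −0.047 to 0.055 with length and is flat with GC, while F2 falls from 0.17 to −0.40 with GC.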

How the data were processed

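RNA-seq libraries from the amygdala of 20 mice, 5 in each of 4 groups, were given as 1 table of read counts per gene. The aligner STAR 2.5.3a and the build GRCm38 are named per the submitters' processing notes, and the deposited values are counts, as whole numbers. How reads were counted, on which annotation and strand, and what became of shared reads is not given in the sources used here. F1 totals lie within 0.305% of each other, so a step not described there had equalised them, and counting error cannot be read from the counts.

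Groups came from the sample labels. Genes with low counts were filtered with edgeR's filterByExpr, leaving 16727, and scaled by TMM (F1 factors 0.956 to 1.03). The main test was edgeR 4.0.16's robust quasi-likelihood F test in R 4.3.3, with 1 mean per group over all 20 libraries, so that the groups share 1 estimate of spread. P-values were adjusted over all genes by the Benjamini-Hochberg method at 0.05. SE is that of the log2 difference. Alternatives were DESeq2 1.42.0, limma 3.58.1 voom with and without library weights, other scalings and filters, 1 surrogate variable (sva 3.50.0), the striatal marker level as covariate, an offset for GC content and transcript length (spline with 5 df), only F1 libraries, removal of mitochondrial genes and removal of each F1 library. The fit was tested on simulated counts. CPM used TMM library sizes.

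Named genes were the 15 higher and 15 lower with the smallest p and the 8 of each with the largest fold (mean of at least 1 CPM, no placeholder symbol), up to 3 per list by p, the 2 of highest level in mitochondrial, ribosomal and striatal lists, and neighbours within 1 Mb of the leading gene. Coordinates, lengths and GC content came from GENCODE M21 (GRCm38) and promoters from RefSeq (GRCm38.p6). The 66 gene lists and the comparison were chosen with earlier results of these data known.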

Additional observations from a re-analysis of the deposited data

Results flagged for a closer look

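Single libraries stood apart from the other 4 of their group by Dixon's test in 9 of 208 combinations of named gene and F1 group (4.33%), and chance flags about 1 in 20 groups. In no-stress replicate 6, 4 genes stood apart at the low end: Fam110b at 32.9 CPM, Musk at 0.858 CPM, Clspn at 1.07 CPM and Uqcrb at 46.6 CPM. No-stress replicate 8 held Lcmt2 at 7.09 CPM. In the stress group, Ino80c was at 20.3 CPM in replicate 2, Tenm3 at 124 CPM in replicate 1, Csmd2 at 48.4 CPM in replicate 5 and Tmem181b-ps at 292 CPM in replicate 3. Of 16 combinations of gene set and group, 1 stood apart, the collagens in stress replicate 5 at a mean log2(CPM + 0.5) of 2.26.

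The difference between the F1 and F2 lineage effects passed the interaction test in 21 named genes (edgeR, adjusted p of 0.0309 to 0.0492). It passed in 421 of 16727 genes (2.52%) over all. Most named genes were chosen by their F1 p or fold, which favours a difference from F2, so the 21 are not independent evidence. Negative F1 minus F2 log2 differences were found for Tmem267 (−1.18), Tmsb4x (−0.67), Uqcrb (−0.65), Ndufs4 (−0.64), Oard1 (−0.63), Rpl39 (−0.62), Uqcrh (−0.57), Rps24 (−0.53), Ino80c (−0.52), Cox5a (−0.51), Eif2a (−0.46) and Ppp2r2d (−0.41). Positive ones were found for Ankrd23 (1.84), Pla2g4b (1.60), Col4a2 (1.32), Tmem181b-ps (1.07), Zc3h3 (0.98), Obsl1 (0.89), Banp (0.88), Tmem181a (0.74) and Pomt1 (0.73). Of the 21, 0 passed with the GC and length offset, 7 without the low-count filter, and 0 without F1 stress replicate 2, 3 or 4 or F1 no-stress replicate 7, 8 or 10.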

How the results depend on the processing

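The count of genes called, 0 in edgeR, was 1 at an adjusted p below 0.1, 1 with library totals, 2 in DESeq2 and 3 in limma-voom with library weights. It was 0 to 1 when single F1 libraries were left out, with the 1 call, Ubxn2b, made without no-stress replicate 7, and 0 under the other settings tried. Of the 30 genes with the smallest p, the F1 to F2 difference passed in 16, in 0 with the GC and length offset, in 6 without the low-count filter and in 0 to 19 when single F1 libraries were left out. No named gene passed in the main fit, and most were chosen by their F1 p or fold. Unchanged signs and sides of the threshold were therefore favoured, and sizes could change without being counted. The 104 named genes gave 2389 values under 23 settings. Of these values, 2372 kept direction and side of the threshold, 7 passed it and 10, in 6 genes, had the other sign. With 1 surrogate variable these were Tox (−0.030), Prlr (−0.042), Gal (−0.049), Scn4b (0.25) and Drd2 (0.20). With the striatal score they were Tox (−0.035), Scn4b (0.047) and Drd2 (0.084), and Sdha was at −0.003 without no-stress replicate 9 and −0.004 without replicate 10, in a range of −0.004 to 0.038 over single libraries left out. The cause was not tested. Of 1724 medians of lists and sets, 48 moved by more than 1 SD. No paired analysis was possible because each mouse had its own replicate number. With 5 mice a group, undescribed equalising of the totals and no record of litter or batch, small differences between lineages cannot be told apart from differences between litters or dissections.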

Other observations

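Classes of genes other than protein-coding ones differed in sign. Antisense genes were positive in 117 of 262 (median log2 difference −0.025), lncRNAs from bidirectional promoters in 20 of 48 (−0.077), lincRNAs in 183 of 365 (0.002) and processed transcripts in 114 of 230 (−0.003). Of 1039 processed pseudogenes, which are copies of spliced mRNAs, 708 were positive in F1 with a median log2 difference of 0.095, beside −0.003 for 14238 protein-coding genes. Without those carrying a ribosomal protein symbol, 669 of 937 were positive (median 0.12). Sense intronic transcripts were positive in 24 of 29 (0.37) and the annotation's provisional transcripts of the TEC class in 192 of 257 (0.25), with F2 medians of −0.45 and −0.37. The lowest F1 stress library was replicate 5 in both classes. Their part in the results above was not tested.

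A stretch of chromosome 17 from 6 to 7 Mb, picked after its values were seen, held 14 of 18 tested genes with positive F1 estimates, beside 51% of all genes, and 2 of the 18 with all stress libraries above all no-stress libraries, beside 0.67% of all genes. The Tmem181 copies Tmem181a (0.46), Tmem181b-ps (0.59) and Tmem181c-ps (0.48) and the dynein light chain genes Dynlt1a (0.31), Dynlt1b (0.37), Dynlt1c (0.58) and Dynlt1f (0.27) are near-identical within each family, so their values are not separate measurements. Tulp4 (0.31) and Serac1 (0.39), which lie beside them, are not copies of these families. The 4 negative genes were Gm2885 (−0.80), which had the largest estimate of the stretch in either direction, Ezr (−0.23), Gtf2h5 (−0.15) and Gm15590 (−0.020).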
